A study of Mus musculus with 12 samples.

Results

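The genes described here are 37 genes of meiotic prophase, the stage of germ cell division in which homologous chromosomes pair and recombine. They are a list of gene names, whose rule uses no measured value but which was drawn up with earlier results of these data known, and all 37 were found among the 35666 genes of the deposited table, 1 of them (Iho1) under another symbol of the annotation. RNA was sequenced from gonocytes, the germ cells of the testis before and shortly after birth, sorted at postnatal day 0 (P0) from mice with the Mvh-Venus transgene, which labels germ cells. Of the 6 libraries, 3 came from Morc1 heterozygous mice (Morc1 (+/-), called het) and 3 from Morc1 knockout mice (Morc1 (-/-), called KO). Every group therefore carried the reporter transgene, and the controls had lost 1 copy of Morc1. MORC1 is a germ cell ATPase known for its part in transposon repression. The labels do not say whether replicates are separate animals or pools, so p-values measure only the spread between these samples. Samples of postnatal day 3 are also labelled and were not analysed here.

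In the mouse testis, meiosis starts only after birth, when spermatogonia respond to retinoic acid, whereas ovarian germ cells enter it before birth. In prophase, cohesin and HORMA proteins form the chromosome axis, the SPO11 complex cuts DNA, and the DMC1 recombinase repairs the breaks on the homologue. The synaptonemal complex then joins the homologues, and part of the breaks become crossovers. P0 gonocytes are in mitotic arrest, before any of these events. The question posed here was which of these genes already have transcripts at P0, and whether their levels differed between Morc1 KO and het gonocytes.

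Promoter sequences are shown first, since a pair of short motifs recurred in them. RefSeq windows (GRCm38.p6, 250 bases before to 50 after each annotated start) were at hand for 31 of the 37 genes, in 36 windows. The motifs searched on both strands were the E-box CACGTG, which is its own complement, and the E2F-type motif TTCCCGC with its complement GCGGGAA. Both are known as sites of repressor complexes that keep germ cell genes silent in somatic and stem cells (MGA with MAX, and E2F6). The stretches below lie upstream of the start and are printed 5′ to 3′ on the strand of the gene, with the motif letters in capitals. The first 4 hold both motifs and belong to genes among the highest of the 37 at P0. Sycp1 and Smc1b show 1 motif each, and Prdm9 and Msh5 are genes of low level that hold the E2F-type motif.

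Tex12 (chr9:50561341-50561428, minus strand): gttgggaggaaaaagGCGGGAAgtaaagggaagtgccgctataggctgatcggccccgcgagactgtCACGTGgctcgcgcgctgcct
Hormad1 (chr3:95559567-95559676, plus strand): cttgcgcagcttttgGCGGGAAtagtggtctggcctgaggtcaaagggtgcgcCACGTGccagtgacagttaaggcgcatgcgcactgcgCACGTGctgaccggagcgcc
Syce2 (chr8:84872155-84872245, plus strand): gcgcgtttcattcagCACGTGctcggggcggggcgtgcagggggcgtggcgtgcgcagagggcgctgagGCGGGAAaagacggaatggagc
Sycp3 (chr10:88459425-88459564, plus strand): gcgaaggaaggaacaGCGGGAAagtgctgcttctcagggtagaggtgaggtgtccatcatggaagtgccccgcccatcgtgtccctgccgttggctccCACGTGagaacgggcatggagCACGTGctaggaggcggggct
Sycp1 (chr3:102936174-102936209, minus strand): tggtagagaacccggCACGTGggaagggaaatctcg
Smc1b (chr15:85131984-85132020, minus strand): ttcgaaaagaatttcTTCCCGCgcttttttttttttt
Prdm9 (chr17:15564380-15564416, minus strand): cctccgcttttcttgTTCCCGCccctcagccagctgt
Msh5 (chr17:35046666-35046702, minus strand): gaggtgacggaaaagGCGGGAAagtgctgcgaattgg

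The E-box was present in 27.8% of the windows of the meiotic genes and in 7.15% of all 32851 RefSeq windows. The E2F-type motif was present in 36.1% of their windows and in 4.6% of all windows. Both motifs stood together in 22.2% of their windows, against 0.457% of all. The windows of the meiotic genes also held more CpG dinucleotides, with a median of 18.5 against 7, and promoters rich in CpG hold such motifs more often. Among windows of listed protein-coding genes with at least 10 CpG, 11% held the E-box and 9.58% the E2F-type motif, against 32.3% and 41.9% of the windows of the meiotic genes with at least 10. These shares are descriptions, and a match is not a measured binding site. By gene, 9 held an E-box (Brdt, Hormad1, Rec114, Rnf212, Stag3, Syce2, Sycp1, Sycp3 and Tex12), 12 held the E2F-type motif and 7 held both. The 17 genes with neither included Syce1, the third by level.

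All 37 genes had reads at P0 in every library of both genotypes, and the lowest value in any library was 45 reads. More than 3 reads in every library were also found for 10 of 10 oocyte, 6 of 6 blood and 4 of 4 endothelial markers. The spermatid markers had them in 6 of 10. Reads in every library therefore do not by themselves set the meiotic genes apart. The levels of the 37 genes spread over a 98.4-fold range. Levels were compared between genes as normalized count per kb of exon, in the mean of the 3 het libraries, and ranked among 19212 listed protein-coding genes. The median of the meiotic genes was 314 per kb, at the 73.3rd percentile, against 105 per kb for the protein-coding genes. Of the 37, 28 lay over that median in het and 28 in KO libraries, all 37 lay over the 25th percentile (26.1 per kb), 18 over the 75th (341 per kb) and 9 over the 90th (946 per kb). In sorted bulk RNA, a gene read in few cells and a gene read weakly in all cells cannot be told apart.

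**Figure D1:**
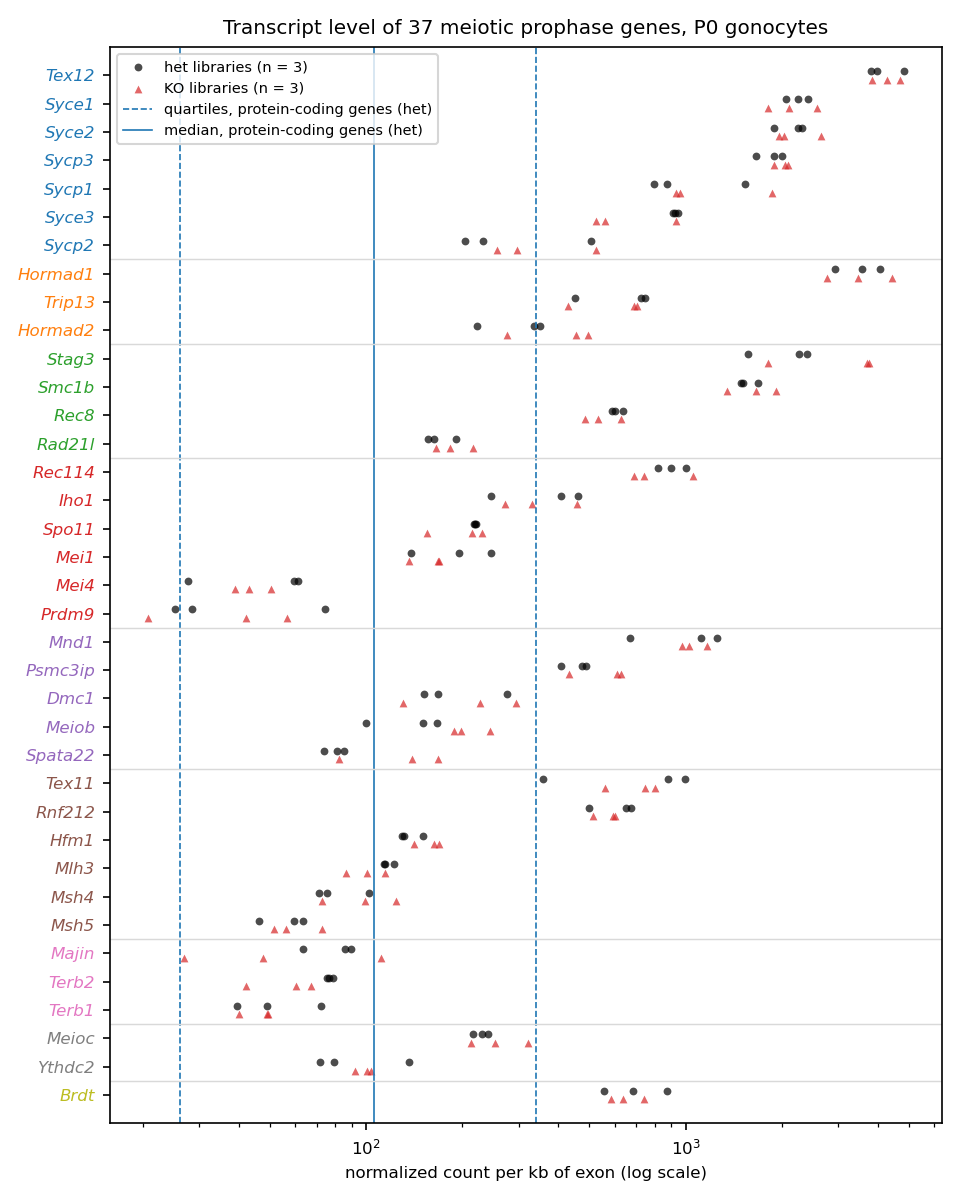
Normalized count per kb of exon (log scale) of each of the 37 genes in the 3 het (circles) and 3 KO (triangles) libraries, grouped by role, with the quartiles of protein-coding genes as lines. The synaptonemal complex, HORMA and cohesin genes lie to the right of the protein-coding median (105 per kb), and the telomere attachment genes Majin, Terb1 and Terb2 have het means to its left.

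The synaptonemal complex was the role with the highest levels, and all 7 of its genes lay over the protein-coding median. Tex12, which codes for a component of the central element, was the highest of the 37 genes. Normalized counts of het replicates 1, 2 and 3 were 4031, 3865 and 4917, and KO replicates 1, 2 and 3 had 3888, 4771 and 4341 (values below keep this order). Per kb of exon this was 4204 ± 557 (SD, n = 3) in het libraries, at the 98.6th percentile of protein-coding genes. The libraries of the genotypes overlapped.

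Syce1 and Syce2, whose products lie in the same central element, followed at 2248 ± 174 and 2150 ± 228 per kb (SD, n = 3, het). Syce1 had 3527, 3020 and 3297 normalized counts in het and 2642, 3084 and 3763 in KO libraries. Syce2 had 4419, 4554 and 3719 in het and 3870, 5216 and 4001 in KO libraries. The range of the KO libraries enclosed all 3 het values of Syce1 and 2 of the 3 of Syce2.

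Sycp3, the lateral element protein that is the usual cytological marker of prophase chromosome axes, stood at 1858 ± 176 per kb (SD, n = 3, het). Its het libraries had 2397, 2542 and 2105 normalized counts and its KO libraries 2594, 2396 and 2647, and the genotypes overlapped. Sycp1, the transverse filament that links the lateral elements, stood at 1069 ± 404 per kb. Its het libraries had 3115, 2834 and 5452 normalized counts, and its KO libraries 3419, 6647 and 3324. A single library of each genotype, het replicate 3 and KO replicate 2, stood above the others. Sycp2, a partner of SYCP3 in the lateral element, had the lowest level of this role (314 ± 167 per kb), and the same libraries were the high ones, with 3020 and 3128 normalized counts against 1214 to 1769 in the rest.

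Of the HORMA group, Hormad1 codes for the axis protein that recruits the break machinery and was the second of the 37 genes. It had 6188, 7012 and 5073 normalized counts in het and 7672, 4804 and 5996 in KO libraries, and 3523 ± 563 per kb (SD, n = 3) in het libraries. Trip13, the ATPase that removes HORMA proteins from synapsed axes, stood at 641 ± 165 per kb. Hormad2, the paralogue that marks unsynapsed axes, stood at 302 ± 70.0 per kb.

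Among the meiotic cohesin genes, Stag3 had the highest level per kb (2081 ± 443, SD, n = 3, het). It had 13035, 13730 and 9026 normalized counts in het libraries and 21606, 10383 and 21230 in KO libraries. A pair of KO libraries lay over every het library, while KO replicate 2 lay within the het range. Smc1b stood at 1561 ± 111 per kb, Rec8 at 608 ± 24.8 and Rad21l at 170 ± 18.1.

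The meiotic cohesin subunits were set beside their mitotic counterparts, which the same cells need for ordinary chromosome cohesion. Stag3 was higher per kb than Stag1, with a ratio of 5.76 ± 0.507 in het (SD, n = 3) and 6.07 ± 2.30 in KO libraries, and 3.71 in het by the length of the longest transcript. It was also higher than Stag2, with ratios of 8.49 ± 2.5 and 10.6 ± 3.81. Smc1b exceeded Smc1a, with ratios of 3.75 ± 1.02 and 3.30 ± 0.409. The kleisin subunits were in the opposite order: Rec8 was at 0.274 ± 0.0559 of Rad21 in het libraries, and Rad21l at 0.0766 ± 0.0170. The meiotic forms of STAG and SMC1 thus had more transcript per length than the mitotic forms in each of the 6 libraries, and the meiotic kleisins had less.

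The genes of break formation spanned a wide range, and 4 of the 6 lay over the protein-coding median. Rec114, which codes for a partner of MEI4 and IHO1 in the complex that activates cutting, was the highest at 908 ± 94.5 per kb (SD, n = 3, het). Iho1 followed at 371 ± 111. Spo11, the catalytic subunit that cuts DNA, stood at 219 ± 2.12 per kb, with 866, 850 and 862 normalized counts in het and 841, 610 and 900 in KO libraries. Mei1, required for break formation, stood at 193 ± 54.3. Mei4 (49.4 ± 18.9) and Prdm9 (42.7 ± 27.5), the methyltransferase that places recombination hotspots, were the lowest 2 of all 37 genes. Prdm9 had 109, 123 and 321 normalized counts in het and 89.1, 181 and 243 in KO libraries, so that its value in het replicate 3 was the highest of the 6.

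Of the strand exchange genes, the HOP2-MND1 complex stood highest, with Mnd1 at 1012 ± 306 and Psmc3ip (HOP2) at 456 ± 43.7 per kb (SD, n = 3, het). Dmc1, the meiotic recombinase that this complex assists, stood lower at 199 ± 67.5 per kb. Meiob, a single-strand DNA binding protein, and its partner Spata22 stood at 139 ± 34.8 and 79.98 ± 6.0 per kb. The level of Spata22 is uncertain, since 80.5% of its exon sequence lies also in Gm49340 on the same strand.

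Among the crossover genes, Tex11 (745 ± 340 per kb, SD, n = 3, het), an X-linked gene needed for crossovers, and Rnf212 (607 ± 94.4), a SUMO ligase-like factor that stabilizes recombination sites, stood highest. The helicase gene Hfm1 stood at 137 ± 11.3 per kb and Mlh3, a nuclease subunit that resolves crossovers, at 117 ± 4.76. The mismatch repair homologues Msh4 (82.7 ± 17.0) and Msh5 (56.3 ± 8.99), which act as a pair, lay under the protein-coding median. Per kb of the longest transcript in place of all exons, Msh4 stood at 171 and Msh5 at 108, against a protein-coding median of 137, so that Msh4 then lay over it and 29 of the 37 genes did. Mei4, at 76.3 by that length, was the only other gene to move over 1.5 times.

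The genes that fasten telomeres to the nuclear envelope were low as a group, with 0 of 3 over the protein-coding median. Majin stood at 79.5 ± 14, Terb2 at 76.8 ± 1.84 and Terb1 at 53.5 ± 16.8 per kb (SD, n = 3, het). Meioc and Ythdc2, whose products bind each other and prolong the meiotic program through RNA, stood at 229 ± 12.8 and 95.8 ± 35.4 per kb. Brdt, a bromodomain reader of acetylated histones in spermatocytes, stood at 705 ± 161 per kb, which was 0.457 ± 0.163 of Brd2, a relative read in most cells (0.293 by the longest transcript). In the whole order of 37 genes, only 4 of the 36 steps between neighbours separated all 3 het libraries of one gene from all 3 of the next, namely those after Hormad1, Rnf212, Hfm1 and Terb2. Other neighbours in the order overlapped.

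Levels can also be read against the motifs printed above. The 14 genes with at least 1 motif had a median of 989 per kb, and the 17 with neither had 302. The motifs differed in this: the 9 genes with an E-box had a median of 1858 per kb and a lowest level of 607. The 5 with only the E2F-type motif stood at 1561 (Smc1b), 229 (Meioc), 79.98 (Spata22), 56.3 (Msh5) and 42.7 per kb (Prdm9). The 7 with both ranged from rank 1 to 16, with a median of 2081 per kb. The groups overlapped widely: genes with a motif reached down to 42.7 per kb (Prdm9) and genes with neither reached up to 2248 (Syce1).

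The markers of germ cells and of later stages show where these levels stand. Gonocyte markers had a median of 2697 per kb in het libraries, led by Mael (23985), Dazl (14827) and Ddx4 (8535), which act in RNA control and transposon silencing in germ cells. Of these 10 markers, 8 lay over the protein-coding median, and the lowest stood at 11.5, under every meiotic gene. The spermatid list had a median of 27.8 per kb. Its genes were uneven: Odf1 (431), a sperm tail gene, and Tnp1 (357), which packages sperm DNA, lay over the median of the meiotic genes, and Spaca1 (236) followed. The protamine genes Prm1 and Prm2 and the transition protein gene Tnp2, which also package sperm DNA and were named after their values were seen, had 16.3, 14.4 and 15.03 per kb, and their lowest libraries held no more than the floor of 3 reads. The pachytene spermatocyte list had a median of 211 per kb, led by Ldhc (786), Clgn (702) and Meig1 (469). Of its 10 genes, 6 lay over the protein-coding median, and the lowest stood at 5.65. The median of the meiotic genes thus lay over those of the spermatid and pachytene lists and under that of the gonocyte list. It also lay under those of the Sertoli (367) and Leydig (424) cell lists, somatic cells of the testis. The Leydig median rested on het replicate 3. All 5 Leydig markers together summed to 205 and 337 per kb in het replicates 1 and 2, against 9167 in het replicate 3.

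**Figure D2:**
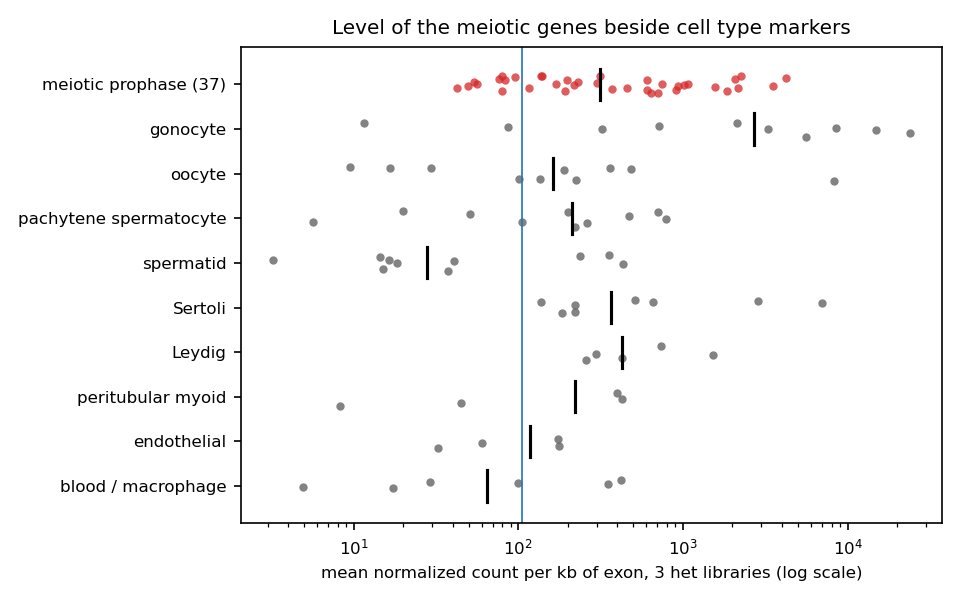
Mean normalized count per kb of exon in the 3 het libraries (log scale) of the 37 meiotic genes (red) and of marker lists of other cell types (grey), 1 point per gene. Black bars are list medians, and the blue line is the protein-coding median (105 per kb). The meiotic genes have a median of 314, between the gonocyte (2697) and spermatid (27.8) lists and under the Sertoli (367) and Leydig (424) lists. The Leydig median rests on het replicate 3, since all 5 markers together sum to 205 and 337 per kb in het replicates 1 and 2.

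Further genes of the meiotic pathway were read the same way, by lists written down beside the 37. Of 29 other meiotic genes in the table, 21 lay over the protein-coding median, and the highest were Fkbp6 (23845 per kb), Tex19.1 (20551) and Cks2 (5479). Fkbp6 and Tex19.1 also act in transposon silencing, and Cks2 is a cell cycle gene. Of 17 genes of meiotic entry and its repression, 12 lay over it, led by Dazl, Dmrt1 (2901) and Rnf2 (1770). Stra8, the retinoic acid target that starts meiosis, named here outside the rule for named genes, had 982, 880 and 622 normalized counts in het and 698, 1384 and 431 in KO libraries, at 459 per kb in het. All 15 DNA break repair genes in the table lay over the protein-coding median, led by Rpa2 (2747), Nbn (1185) and Rpa1 (928).

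None of the 37 genes changed between KO and het gonocytes by limma at an adjusted p of 0.05. Among all 26005 genes tested, 112 were higher in KO (0.431%) and 11 lower (0.0423%), or 0.473% in either direction, so that the count of 0 is near this background. By unadjusted p under 0.05 the count was also 0 of 37, against 6.86% of all genes, and edgeR and DESeq2 on recovered reads called 0 members, again with 0 under an unadjusted p of 0.05. Morc1 itself, as a check of the labels, had 7248, 7485 and 4126 normalized counts in het and 1361, 1343 and 1794 in KO libraries (log2 fold change -2.03, SE 0.27, limma adjusted p = 0.0109).

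Log2 fold changes of the meiotic genes (KO against het, on the scale of log2(normalized count + 1)) ran from -0.58 in Majin to 0.64 in Spata22. Their median was 0.03, against -0.02 over all genes tested, with 21 positive and 16 negative values. The median size of the change, without its sign, was 0.15 against 0.29 over all genes. The 95% intervals, from limma, lay within a 2-fold change in either direction for 28 genes and within 3-fold for 36. The exception to the latter was Majin. Changes within these intervals are not excluded with 3 libraries a group. A call after adjustment over 26005 genes needs a larger change than a 95% interval that leaves out 0.

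**Figure D3:**
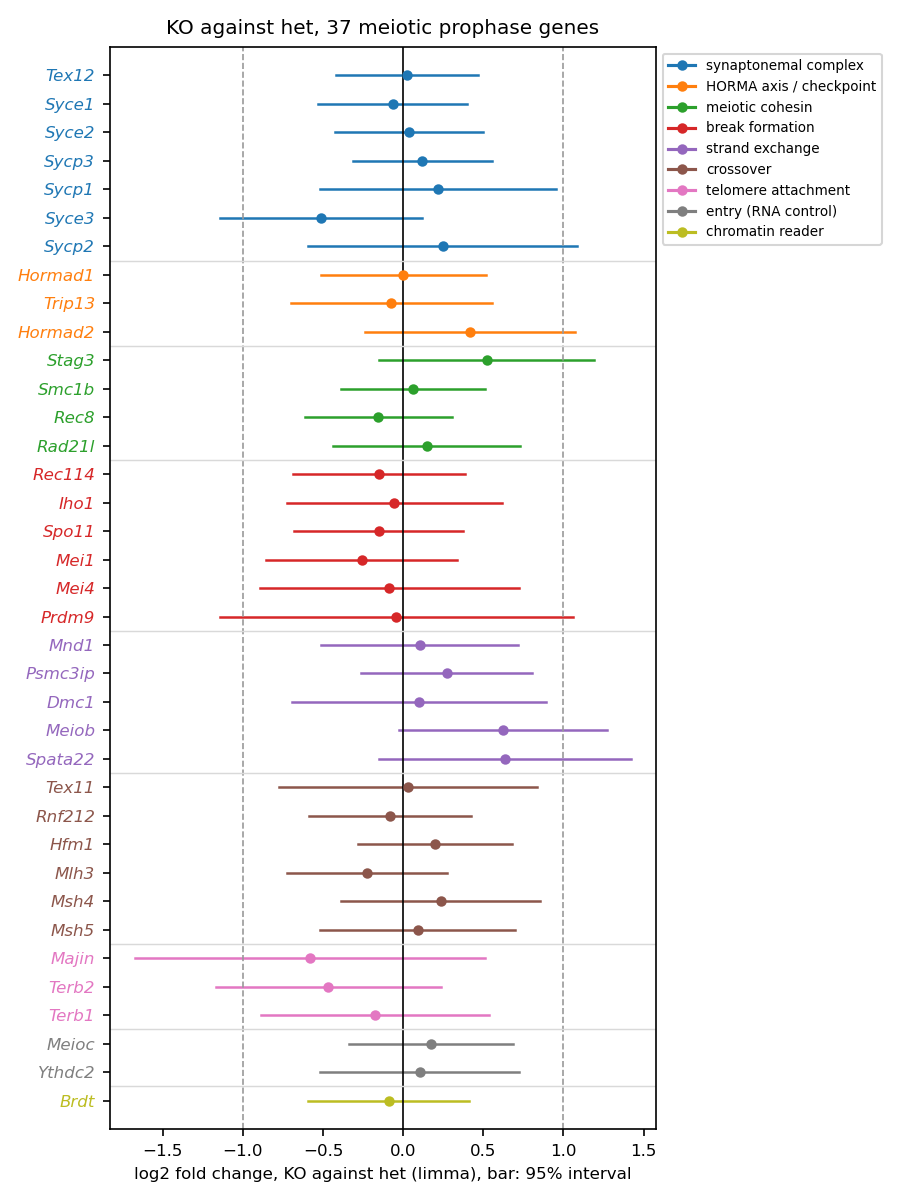
Log2 fold change (KO against het, limma) of each of the 37 genes with its 95% interval, colored by role. Dashed lines mark a 2-fold change. The interval of every gene includes 0, and 28 intervals lie within the dashed lines.

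The 2 genes whose genotypes did not overlap, and those with larger fold changes, were chosen for description after their values were seen. Meiob had 299, 270 and 179 normalized counts in het and 440, 356 and 340 in KO libraries, so that every KO library stood above every het library. Its log2 fold change was 0.62 (SE 0.29, limma adjusted p = 0.762). Terb2 had 159, 161 and 167 in het and 128, 142 and 89.2 in KO libraries, each KO library below each het library. Its log2 fold change was -0.47 (SE 0.31, limma adjusted p = 0.863). These were the only 2 of 37 genes (5.41%) without overlap, against 12.7% of all genes tested (7.17% with KO above and 5.57% with KO below).

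Spata22, the partner of Meiob, had 109, 103 and 93.6 normalized counts in het and 105, 178 and 214 in KO libraries, with KO replicate 1 among the het values (log2 fold change 0.64, limma adjusted p = 0.822). Of its exon sequence, 80.5% lies also in Gm49340 on the same strand, so reads there cannot be assigned to one of them from the table alone. Syce3 had 513, 506 and 524 in het and 310, 518 and 291 in KO libraries, and KO replicate 2 lay within the narrow het range (log2 fold change -0.51, limma adjusted p = 0.822). Majin had 147, 104 and 140 in het and 78.2, 183 and 44.1 in KO libraries, the widest spread of the 37 genes at 4.15-fold. Its 3 KO libraries lay on both sides of the het range (log2 fold change -0.58, limma adjusted p = 0.896). Stag3, whose counts are given above, had a log2 fold change of 0.52 (SE 0.30, limma adjusted p = 0.826), and 0.87 without KO replicate 2 (limma adjusted p = 0.316, the smallest of any gene and alternative here; over its alternatives the direction was the same).

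By role, all 6 break formation genes and all 3 telomere genes had negative log2 fold changes and all 5 strand exchange genes positive ones, with medians of -0.12, -0.47 and 0.27. The synaptonemal complex, HORMA, cohesin and crossover genes had values of both signs, and 48.4% of all genes tested had positive ones. The break formation, telomere and strand exchange roles were singled out after their values were seen. None of their 14 genes passed the test. The direction of 7 of them turned when 1 library was left out (Iho1, Spo11, Mei4, Prdm9, Terb1, Mnd1 and Dmc1). The other pathway lists gave the same count: 0 of 10 mitotic cohesins and paralogues, 0 of 29 other meiotic genes, 0 of 17 genes of meiotic entry and its repression and 0 of 15 break repair genes were called by limma, with 1 gene (Boll) under an unadjusted p of 0.05.

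Libraries of one genotype also differed from each other: the median ratio of a gene's highest to its lowest library was 1.38 in het and 1.44 in KO. Of the 37 genes, 11 varied over 2-fold across the 6 libraries. Het replicate 3 and KO replicate 2 were both the highest of their own group in 6 genes (Sycp1, Sycp2, Syce3, Tex12, Terb2 and Ythdc2) and both the lowest in 8 (Sycp3, Hormad1, Hormad2, Rec8, Stag3, Rnf212, Tex11 and Meioc). Over all genes tested these shares were 20.2% and 19.8%, near those of the meiotic genes. Tex11 was among the latter, with 1296 normalized counts in het replicate 3 and 2030 in KO replicate 2 against 2697 to 3610 in the other libraries.

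**Figure D4:**
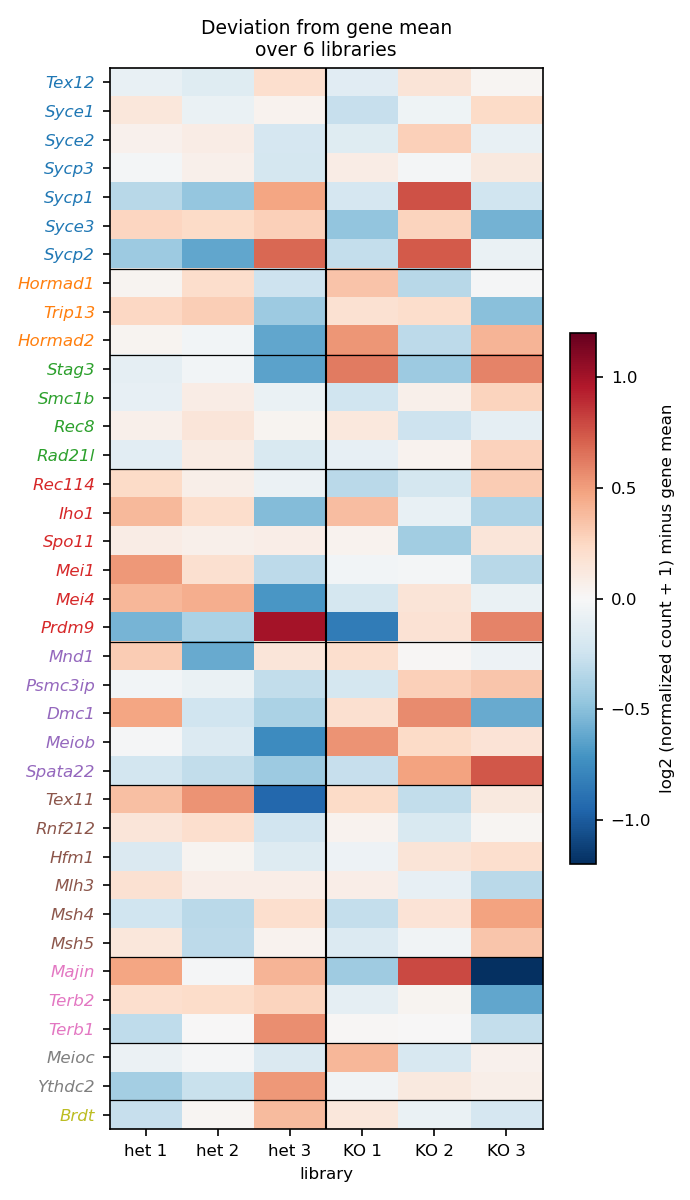
Deviation of each gene's log2(normalized count + 1) from its mean over the 6 libraries, by library, with roles separated by lines. Red is above and blue below the gene mean. In Sycp1 and Sycp2 the columns het 3 and KO 2 are both red, and in Stag3 and Tex11 both are blue.

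Markers of other testis cells also differed between libraries. The summed level of 8 Sertoli cell markers per kb was 10705, 7532 and 17103 in het replicates 1 to 3 and 5371 to 8255 in KO libraries. Their log2 fold changes were negative in 8 of 8, with 4 of 8 under an unadjusted limma p of 0.05 and 0 called. The summed level of 5 Leydig cell markers was 205, 337 and 9167 in het replicates 1 to 3 and 123 to 346 in KO libraries. Markers of cells other than germ cells were therefore present in the sorted libraries, and het replicate 3 stood apart in those of Leydig cells. Their part in the values of the meiotic genes was not tested. Without het replicate 3, 28 of the 37 genes again lay over the protein-coding median and 0 were called.

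Transposable element (TE) copies near the meiotic genes gave a second readout of the same libraries. Of 150 tested copies within 10 kb of a meiotic gene, 23 were higher in KO and 0 lower by limma (adjusted p under 0.05), against 15.6% and 0.735% of all 49781 copies tested. A copy higher in KO lay within 10 kb of 3 of the 37 genes, against 6.28% of all 25967 genes compared. Mei4 had 21 of these copies, and Hfm1 and Tex11 had 1 each. No other gene in the comparison had as many higher copies within 10 kb as Mei4, and the median among the 1630 genes with any was 1. These counts were not scaled by the length of the gene, and Mei4 spans 342 kb.

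Mei4 codes for an essential partner of SPO11 in break formation and spans 342 kb on the plus strand (chr9:81863670-82206007, GRCm38). Of its 3 annotated transcripts, 1 reaches the end of the gene through a last intron of 225 kb (chr9:81979258-82204556), and the shorter ones end by position 82027026. All 20 higher copies within the gene lay inside this intron and past the end of the shorter transcripts. None overlapped an exon, 14 were on the strand of Mei4 and 6 on the other, and their lengths ran from 94 to 6253 bp.

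Their log2 fold changes ran from 2.52 to 6.33 (limma adjusted p from 0.000398 to 0.0181), and in all 20 every KO library stood above every het library. As these copies were picked by that call, the separation is no further support for it. In 6 of them no het library had a read, so their fitted changes depend on the pseudocount. The table lists a copy only where it has at least 10 reads over the 6 libraries. Of the 90 copies listed past the end of the shorter transcripts, 83 had fewer than 10 reads in the het libraries together and so were listed through their KO reads, and of the 24 tested there only 1 had a het mean of 10 or more. The counts of copies are therefore a description of copies selected in part for high KO values. The 7 copies with 10 or more het reads, which would be listed from het alone, summed to 35.9, 48.2 and 69.0 normalized counts in het libraries and 670, 1276 and 844 in KO libraries. Of them, 6 were called. Entry to the test required a mean of 10 over the 6 libraries, so for all but 1 of the tested copies it still rested on KO reads. The 11 copies listed before that point had 47.5, 63.9 and 42.2 in het and 57.2, 24.0 and 46.2 in KO libraries, which overlapped.

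The count of the Mei4 gene itself was not called. It was 245, 252 and 114 in het and 160, 208 and 176 in KO libraries, with a log2 fold change of -0.09 (SE 0.36, 95% interval -0.90 to 0.72, limma adjusted p = 0.984). The higher copies thus lay in an intron of a gene that was low at P0 in both genotypes. Whether their reads belong to transcripts of Mei4 or to separate ones was not tested.

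**Figure D5:**
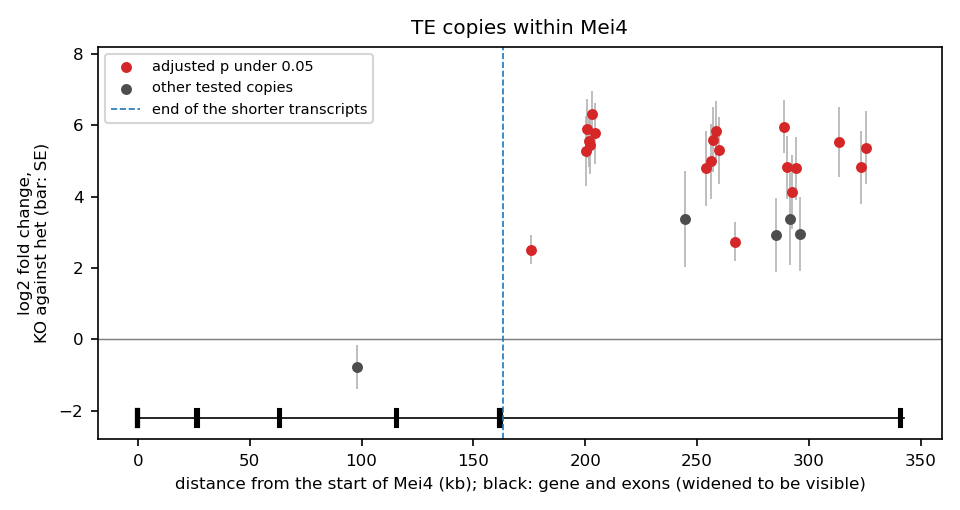
Log2 fold change (KO against het, limma, bars: SE) of each tested TE copy within Mei4 by distance from the start of the gene in kb, with the exons as black marks below. The 20 called copies (red) all lie to the right of the dashed line, which marks the end of the shorter transcripts, and the 1 tested copy to its left is below 0.

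The copy within Tex11 (chrX:100859056-100865917, 6862 bp, same strand as the gene) had 31.6, 26.9 and 33.5 normalized counts in het and 64.9, 111 and 73.6 in KO libraries (log2 fold change 1.38, SE 0.41, limma adjusted p = 0.0416). The copy beside Hfm1 (chr5:106935596-106940618, 5023 bp, opposite strand) had 7.38, 10.1 and 27.8 in het and 61.0, 55.0 and 46.2 in KO libraries (log2 fold change 1.98, SE 0.56, limma adjusted p = 0.0318). Both were separated by genotype, which is no further support in copies picked by their call. Both calls were lost with the replicate block and when any 1 library other than het replicate 3 was left out, while Mei4 kept at least 1 called copy each time. The gene counts of Tex11 and Hfm1 themselves had log2 fold changes of 0.03 (SE 0.36) and 0.20 (SE 0.22).

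Some counts may include reads of other loci. Sycp3 shares 52.2% of its exon sequence with Chpt1, Rec114 26.9% with Nptn and Psmc3ip 21.2% with Mlx, all on opposite strands, and whether counting used strand is not given in the sources used here. Near-identical copies (at least 90% identity over at least 200 bp) were found for Hormad1 (Gm7167 and Gm15529), Sycp1 (Sycp1-ps1), Mnd1 (Mnd1-ps) and Majin (Gm6610). Of these, the one with the highest count was Gm15529, at 260 normalized counts in het libraries against 6091 for Hormad1.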

How the data were processed

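The gene and TE tables hold normalized counts, a signal the authors deposited after dividing read counts by size factors. The submitters' processing notes name bcl2fastq 2.20, cutadapt 1.18, HISAT2 2.1.0, featureCounts 1.5.2 and DESeq2 1.26.0 with mm10/GRCm38. Settings for strand and reads with several matches are not given in the sources used here. Libraries were made with a SMART-seq v4 and a TruSeq kit, per the labels' protocols. Recovered reads ran from 28363683 to 32816861 per library for genes and from 1974504 to 3703419 for TE copies. Of the gene values, 100% were whole reads within 0.001. The TE values were rounded to whole reads without that check.

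Genes were matched to GENCODE M21 (35560 of 35666). Each table was fitted whole with limma 3.58.1 (R 4.3.3, eBayes with trend, two-sided) on log2(value + 1), keeping rows whose mean reached 10. Benjamini-Hochberg adjustment ran over all rows tested. All 37 genes passed the filter. edgeR 4.0.16 and DESeq2 1.42.0 were run on recovered reads. Copies were sought with blastn 2.17.0. The fit was tested on simulated data. The genes and lists were chosen with earlier results of these data known. Named in full are the 6 genes with the highest het level per kb, those called or under an unadjusted p of 0.05, and of other lists the 3 highest. Other named genes were chosen after their values were seen. Replicate numbers were not taken as pairs (correlations of deviations from 0.14 to -0.16). The closest replicates, het 1 and 2, still differed beyond counting noise (mean chi-square per gene 10.0). Some comparisons with related genes are not reported here.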

Additional observations from a re-analysis of the deposited data

How the results depend on the processing

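No meiotic gene was called in any of 15 alternatives (smallest adjusted p in any of them 0.316, Stag3 without KO replicate 2), and the median log2 fold change of the 37 ran from -0.02 to 0.07. Of 555 comparisons of a gene under an alternative, 516 kept the direction. Counts over all genes moved more: 112 genes higher became 70 with a pseudocount of 0.1, 177 with a pseudocount of 10, 64 with the replicate block and 400 with DESeq2, and 17 to 105 without 1 library. The 11 lower genes became 5 with a pseudocount of 0.1, 3 without the trend, 5 with the block and 65 with DESeq2, and 1 to 7 without 1 library. With the limit at the 75th percentile, 18 and not 28 genes passed the level. The count of higher TE copies near the genes, 23, was 10 when a mean of at least 50 was required. The 3 genes with such a copy became 1 with the replicate block and 1 to 4 without 1 library. The block and the scaling of copies by gene factors were added for TE copies after seeing the data. The block changed no call of a meiotic gene (0 called, smallest adjusted p 0.810), and same-numbered replicates correlated at 0.14, -0.16 and -0.04. The cause of these moves was not tested.

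The log2 fold change changed sign with quantile normalization in Tex12 (-0.0032) and Hormad1 (-0.0295), and for Tex11 with edgeR (-0.0840) and DESeq2 (-0.0831). Without 1 library it ran across 0 in 19 genes: from -0.0481 to 0.13 in Tex12, -0.17 to 0.17 in Hormad1, -0.20 to 0.0571 in Syce1, -0.10 to 0.12 in Syce2, -0.0594 to 0.19 in Smc1b, -0.11 to 0.51 in Sycp1, -0.17 to 0.28 in Mnd1, -0.43 to 0.31 in Tex11, -0.25 to 0.0769 in Brdt, -0.31 to 0.16 in Trip13, -0.33 to 0.12 in Iho1, -0.0605 to 0.65 in Sycp2, -0.26 to 0.0182 in Spo11, -0.16 to 0.43 in Dmc1, -0.0756 to 0.39 in Ythdc2, -0.0566 to 0.19 in Msh5, -0.37 to 0.0608 in Terb1, -0.46 to 0.11 in Mei4 and -0.35 to 0.45 in Prdm9.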
